A study of Mus musculus with 2 samples.

Results

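The antigen presentation genes of the mouse embryonic lung were followed through 2 libraries of total RNA. The set holds 46 of 43346 genes. It takes every protein-coding gene whose symbol starts with H2-, the prefix of the mouse major histocompatibility complex (MHC), which gave 34 genes, and 12 genes that help MHC molecules to form and load. By role the set divides into 24 class I heavy chain genes, 9 class II genes, 12 machinery genes and H2-Ke6, which has an H2- symbol but encodes a hydroxysteroid dehydrogenase. Both libraries came from lungs of B6NCrl embryos at embryonic day 15.5, with male and female embryos pooled. Replicate 1 pooled lungs of 78 embryos and replicate 2 lungs of 62, so each value is the mean over a pool and no embryo can be followed alone. The libraries form a single group with no treatment and no mutant, so the design allows a comparison of genes and classes within the tissue and of the pools with each other, and no test of a condition.

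Class I molecules show peptides made inside the cell, cut by the proteasome and carried into the endoplasmic reticulum by the Tap1-Tap2 transporter. There a heavy chain pairs with beta-2 microglobulin, encoded by B2m, while tapasin (Tapbp) and calreticulin (Calr) hold the complex until a peptide binds. Class II molecules show peptides from taken-up material and are known mainly from dendritic cells, B cells, macrophages and the epithelium of the thymus. Their alpha and beta chains first bind the invariant chain, encoded by Cd74, and H2-DM later helps to exchange its remnant for a peptide. Ciita switches on class II genes and Nlrc5 switches on class I genes, both by joining factors that already sit on the promoter at elements named X and Y. Nearly all nucleated cells of an adult carry class I, and embryonic tissues are known for low levels of both classes.

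The promoter letters are shown for 2 class II genes, H2-Aa and H2-Eb1, for the class I gene H2-K1 and for B2m, since class I and class II genes differed in how far the libraries lay apart for them. Each stretch is the 180 bases that end at the RefSeq start of the gene on GRCm38.p6, read 5′ to 3′ along the gene. They lie at chr17:34287824-34288003 on the minus strand for H2-Aa, chr17:34305687-34305866 on the plus strand for H2-Eb1, chr17:34000334-34000513 on the minus strand for H2-K1 and chr2:122147507-122147686 on the plus strand for B2m. Capitals mark ATTGG, the core of the Y box, TGACG, the core of the X2 box, AACNGATG, the end of the X1 box, GGGATTCCC, a kappa B site, and GAAANNGAA, the core of an interferon-stimulated response element, each on either strand.
H2-Aa: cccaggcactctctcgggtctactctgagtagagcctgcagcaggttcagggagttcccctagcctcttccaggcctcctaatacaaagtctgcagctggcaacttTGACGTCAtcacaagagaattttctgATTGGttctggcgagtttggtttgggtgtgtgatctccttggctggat
H2-Eb1: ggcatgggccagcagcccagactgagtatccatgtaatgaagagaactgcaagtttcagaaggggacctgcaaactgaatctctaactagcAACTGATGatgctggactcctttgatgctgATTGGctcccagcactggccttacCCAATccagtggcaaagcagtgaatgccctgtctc
H2-K1: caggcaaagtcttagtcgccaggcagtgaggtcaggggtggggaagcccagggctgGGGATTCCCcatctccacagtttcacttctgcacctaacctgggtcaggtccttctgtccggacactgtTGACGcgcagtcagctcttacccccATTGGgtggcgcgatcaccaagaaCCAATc
B2m: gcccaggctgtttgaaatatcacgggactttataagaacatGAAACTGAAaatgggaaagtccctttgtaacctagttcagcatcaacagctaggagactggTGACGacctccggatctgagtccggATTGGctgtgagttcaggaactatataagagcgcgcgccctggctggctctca

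The motifs were chosen after the sequences had been read, so the counts describe the windows and support nothing. RefSeq gave a window of 250 bases before and 50 bases after the start for 39 of the 46 genes. ATTGG, on either strand, stood in the windows of 8 of 8 class II genes, 19 of 22 class I genes and 5 of 8 machinery genes, and in 37.4% of all 32851 windows. The longer Y box CTGATTGG, which contains ATTGG, was in 4 of 8 class II, 13 of 22 class I and 2 of 8 machinery genes, against 4.10% of all windows. AACNGATG occurred in 4 of 8 class II genes, namely H2-Eb1, H2-Eb2, H2-DMb1 and H2-DMb2, in 1 class I gene and in 2.32% of all windows. TGACG was found in 1 of 8 class II, 11 of 22 class I and 3 of 8 machinery genes, against 20.8% of all windows. The kappa B letters were present for H2-K1, H2-D1, H2-Q6 and H2-Q7, for 0 of 8 class II genes and in 0.353% of all windows. GAAANNGAA was in 2 of 22 class I genes, 0 of 8 class II genes and 2 of 8 machinery genes, B2m among them, against 8.56% of all windows.

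The libraries held 40395850 and 36601054 estimated reads. Levels are TPM, the deposited unit that divides reads by transcript length and library total, so that different genes can be compared. The 6 lung epithelium markers carried their label: Sftpc, the surfactant protein C gene, stood at 6881 and 5864 TPM in replicate 1 and replicate 2, and Nkx2-1, the lung lineage factor, at 74.1 and 71.0. The libraries differ in thymus and liver markers, which are given beside the results they accompany.

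The set as a whole was present at a wide span of levels. At 1 TPM or more in both libraries, 26 of 46 genes were detected, beside 60.7% of all protein-coding genes. They comprised 9 of 24 class I genes, 6 of 9 class II genes, 10 of 12 machinery genes and H2-Ke6. Summed over all its members, class I reached 215 TPM in replicate 1 and 170 TPM in replicate 2, or 192 ± 32.3 (mean ± SD, n = 2, as for every mean below). Class II summed to 73.5 and 28.5 TPM, or 51.0 ± 31.8. Class I exceeded class II 2.93-fold in replicate 1 and 5.95-fold in replicate 2. In whole tissue, fewer cells of a type and less RNA per cell cannot be told apart. Machinery summed to 1420 and 1283 TPM, of which Calr and B2m made up 86.4% and 90.4%. The SD of the class II sum was the widest relative to its mean of the 3 classes.

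**Figure D1:**
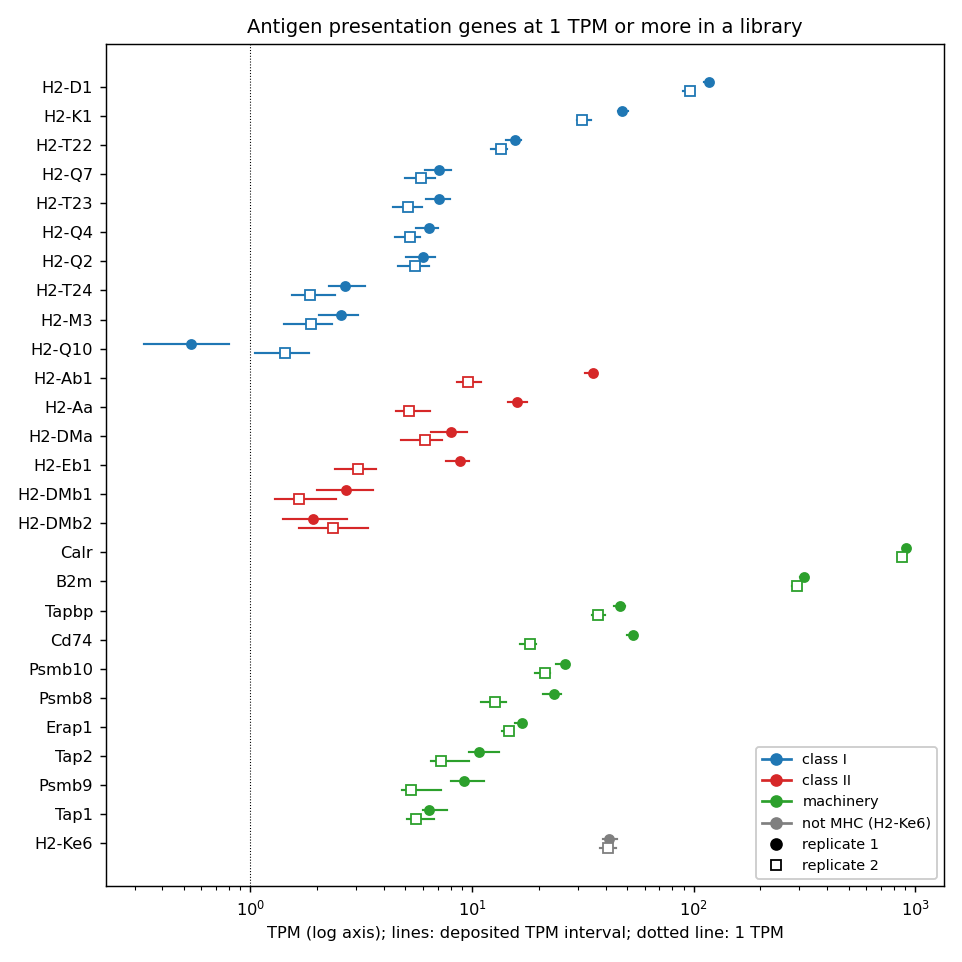
TPM of the 27 genes at 1 TPM or more in at least 1 library, on a log axis, with filled circles for replicate 1, open squares for replicate 2 and lines for the deposited TPM interval. Calr and B2m lead, and the pairs of H2-Ab1, H2-Aa, H2-Eb1 and Cd74 are pulled apart while those of B2m and Calr nearly coincide.

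Class I was carried by its classical genes, H2-D1 and H2-K1, which encode the peptide-presenting heavy chains seen by CD8 T cells. H2-D1 (chromosome 17, 35262730 to 35267499, GRCm38) stood at 117 TPM in replicate 1 and 95.8 TPM in replicate 2, or 107 ± 15.2. H2-K1 (chromosome 17, 33996017 to 34000347) stood at 47.6 and 31.4 TPM, or 39.5 ± 11.5. Together they held 76.6% and 75.0% of the class I sum, and H2-D1 exceeded H2-K1 2.47-fold and 3.06-fold. Both were somewhat lower in replicate 2, H2-K1 by 1.44-fold (1.25 to 1.61 from the bounds of the deposited intervals) and H2-D1 by 1.17-fold (1.08 to 1.27), after trimmed mean of M values (TMM) scaling. Neither reached the 2-fold used below to call a gene apart.

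Nonclassical class I genes, which lie in the Q, T and M regions of the complex, summed to 50.3 and 42.4 TPM over 22 genes. H2-T22, whose product is known as a ligand of gamma-delta T cells, led them with 15.6 and 13.5 TPM, or 14.5 ± 1.46. The next 4 genes could not be ordered, since their intervals overlapped from each to the next in both libraries. H2-Q7, which encodes a chain of the Qa-2 antigen, stood at 7.11 and 5.87 TPM. For H2-T23, which encodes Qa-1, a ligand of CD94/NKG2A receptors on natural killer cells, the levels were 7.13 and 5.13. H2-Q4 stood at 6.42 and 5.25 TPM and H2-Q2 at 5.98 and 5.55. Lower still, H2-T24 stood at 2.68 and 1.85 TPM and H2-M3, which presents formylated peptides, at 2.57 and 1.88.

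The remaining class I genes were low. H2-Q10 was under 1 TPM in replicate 1 only and is described with the liver markers below. Under 1 TPM in both libraries were 14 genes. H2-Q6 (0.92 and 0.66 TPM), H2-T3 (0.60 and 0.49), H2-M5 (0.34 and 0.40), H2-Q1 (0.17 and 0.20), H2-M10.2 (0.15 and 0.16) and H2-M2 (0.090 and 0) had reads in at least 1 library. For H2-T3 the TPM lay below its own deposited interval in both libraries (0.682 to 2.34 and 0.559 to 2.36). Its deposited posterior mean TPM was 1.38 and 1.33, so its place under 1 TPM depends on the measure. H2-M1, H2-M9, H2-M10.1, H2-M10.3, H2-M10.4, H2-M10.5, H2-M10.6 and H2-M11 had 0 reads in both. For these 8 genes a count of 0 allows up to 3 reads, which equals 0.0759 to 0.125 TPM in replicate 1 and 0.0816 to 0.134 TPM in replicate 2. The upper bounds of their deposited intervals ran from 0.0743 to 0.178 TPM in replicate 1 and from 0.0793 to 0.192 TPM in replicate 2. The H2-M1, H2-M9 and H2-M10 families are known from the vomeronasal organ.

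The light chain and calreticulin genes were abundant, and the transporter genes were low. B2m (chromosome 2, 122147686 to 122153083) stood at 316 and 293 TPM, or 304 ± 16.04. Its transcripts outnumbered those of all class I heavy chains together 1.47-fold in replicate 1 and 1.73-fold in replicate 2. Calr (chromosome 8, 84841850 to 84846934), a general calcium-binding chaperone of the endoplasmic reticulum, stood at 910.5 and 867 TPM, or 889 ± 31.0, above 99.3% of the detected protein-coding genes. Its log2 ratio of replicate 2 over replicate 1 was 0.00039 after TMM scaling and -0.07 without scaling. Tapbp, the tapasin gene, was far below Calr at 46.5 and 37.1 TPM, 1.19-fold lower in replicate 2 (1.05 to 1.34). The transporter genes were lower again, with Tap2 at 10.7 and 7.24 TPM and Tap1 at 6.39 and 5.60. Tap2 was 1.41-fold lower in replicate 2 (0.959 to 1.93) and Tap1 1.09-fold (0.847 to 1.44), ranges of the scaled ratio that both include 1. Before scaling, the deposited intervals of Tap2 did not overlap (9.71 to 13.2 and 6.50 to 9.64 TPM), while those of Tap1 did.

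Constitutive proteasome subunits far exceeded the inducible ones. Psmb8, Psmb9 and Psmb10 encode the interferon-inducible catalytic subunits that replace Psmb5, Psmb6 and Psmb7 in the immunoproteasome. Psmb8 stood at 23.5 and 12.7 TPM, Psmb9 at 9.22 and 5.32, and Psmb10 at 26.2 and 21.4. Their constitutive counterparts were higher in every case, with Psmb5 13.9-fold and 27.4-fold above Psmb8, Psmb6 70.7-fold and 126-fold above Psmb9, and Psmb7 8.04-fold and 11.1-fold above Psmb10. In each pair the gap was larger in replicate 2. Psmb8 was 1.76-fold lower there (1.40 to 2.19), Psmb9 1.65-fold (1.05 to 2.23) and Psmb10 1.17-fold (1.01 to 1.36), while Psmb5, Psmb6 and Psmb7 had log2 ratios of 0.16, 0.12 and 0.24. Erap1, which trims peptides in the endoplasmic reticulum, stood at 16.8 and 14.7 TPM.

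**Figure D2:**
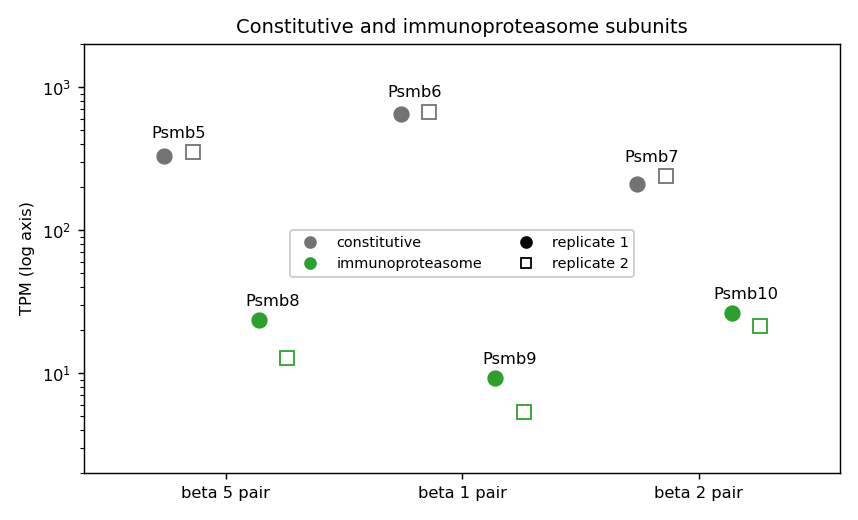
TPM (log axis) of the constitutive proteasome subunits in grey and their inducible counterparts in green, with filled circles for replicate 1 and open squares for replicate 2. Each inducible subunit lies below its partner, and Psmb8 and Psmb9 are lower in replicate 2 while Psmb5 and Psmb6 are not.

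Around these genes, 12 further genes of class I assembly and proteolysis were all detected, beside 60.7% of all protein-coding genes. The highest was Pdia3, a disulfide isomerase of the loading complex, at 741 and 722 TPM, and the lowest Lnpep, an aminopeptidase of endosomes, at 3.78 and 3.01. Their median log2 ratio was 0.05, with 3 lower and 9 higher in replicate 2 and 0 of them 2-fold apart. Of all 15152 genes with a mean of at least 1 TPM, 263 were 2-fold or more lower and 185 higher.

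Class II chains were present at lower levels and differed most between the pools. H2-Ab1 (chromosome 17, 34257689 to 34269419), the beta chain of the A molecule, stood at 35.0 TPM in replicate 1 and 9.58 TPM in replicate 2. H2-Aa (chromosome 17, 34282744 to 34287823), its alpha chain, stood at 15.96 and 5.21 TPM, and H2-Eb1 (chromosome 17, 34305867 to 34316674), the beta chain of the E molecule, at 8.81 and 3.07. Cd74, the invariant chain, stood at 53.5 and 18.2 TPM. The means were 22.3 ± 18.0, 10.6 ± 7.60, 5.94 ± 4.06 and 35.9 ± 24.9 TPM in the same order. In each of the 4 genes replicate 1 was the higher library and the deposited intervals did not overlap.

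The ranges of the differences overlapped. H2-Ab1 was 3.48-fold lower in replicate 2 (2.81 to 4.10 from the interval bounds), H2-Aa 2.92-fold (2.14 to 3.72), Cd74 2.79-fold (2.44 to 3.20) and H2-Eb1 2.73-fold (1.95 to 3.85). A gene was called apart when its mean was at least 5 TPM, its scaled levels differed 2-fold or more and its intervals did not overlap. Of the 22 members with that mean, these 4 were apart, all lower in replicate 2. Over all 11261 genes with that mean, 0.364% were apart, and 0.249% were apart and lower in replicate 2. Among those 28 genes, ordered by the size of the difference, H2-Ab1 came 11th, H2-Aa 16th, Cd74 18th and H2-Eb1 19th. With 1 library on each side, the intervals cover counting and the assignment of reads, and not the spread between pools of embryos.

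Between the chains the proportions changed less than the levels. Cd74 stood at 0.895 and 1.02 times the sum of H2-Aa, H2-Ab1 and H2-Eb1. H2-Ab1 exceeded H2-Aa 2.19-fold in replicate 1 and 1.84-fold in replicate 2, and H2-Aa exceeded H2-Eb1 1.81-fold and 1.70-fold. H2-Eb2 was near 0, at 0.090 and 0.020 TPM from 5 reads and 1 read. H2-Ea-ps, the E alpha chain gene that C57BL/6 mice carry in a broken form, is not a protein-coding gene in the annotation and had 0 reads in either library, a count that allows up to 0.193 and 0.208 TPM.

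**Figure D3:**
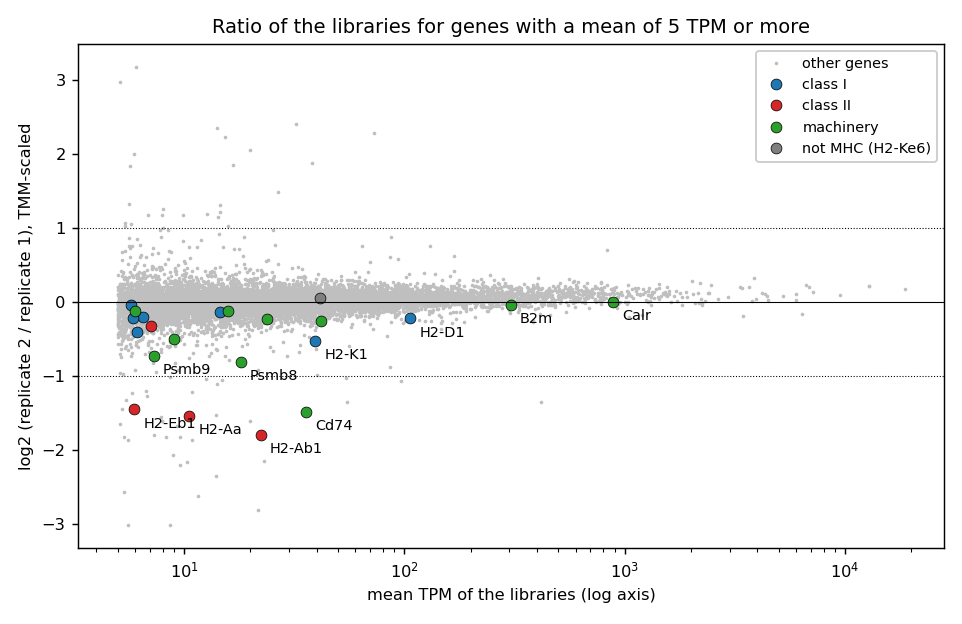
Log2 ratio of replicate 2 over replicate 1 after TMM scaling against the mean TPM (log axis) for every gene whose mean was at least 5 TPM, with the members coloured by class. H2-Ab1, H2-Aa, H2-Eb1 and Cd74 lie below the dotted line at 2-fold, and B2m and Calr lie in the centre of the cloud of other genes.

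By class, the median log2 ratio over members whose mean was at least 1 TPM was -0.22 for 9 class I genes, -1.04 for 6 class II genes and -0.24 for 10 machinery genes, beside 0.0055 over all 15152 genes with that mean. Of the members with that mean, 23 of 26 were lower in replicate 2, beside 48.4% of all genes. The class I values ran from -0.53 to -0.04, so that 9 of 9 were lower and 0 reached 2-fold. The 3 members that were higher were H2-DMb2, H2-Ke6 and Calr. For H2-Ke6 and Calr the sign turned without scaling, and the intervals of H2-DMb2 overlapped. H2-Ke6, the gene outside the pathway, stood at 41.6 and 41.2 TPM.

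The H2-DM genes differed less between the libraries than the chains, but the range of H2-DMb1 overlapped those of H2-Aa and H2-Eb1. H2-DMa, the alpha chain of the peptide exchange factor, stood at 8.06 and 6.15 TPM, with overlapping intervals, 1.25-fold lower in replicate 2 (0.848 to 1.88). The beta chain genes stood at 2.71 and 1.66 TPM for H2-DMb1 and at 1.92 and 2.37 TPM for H2-DMb2, again with overlapping intervals. H2-DMb1 was 1.55-fold lower in replicate 2 (0.780 to 2.66). H2-DMb2 was 1.30-fold higher there, and its ratio of replicate 1 over replicate 2, 0.771 (0.396 to 1.57), had a range that includes 1. Its estimated reads were 54.1 and 49.8, and its coding transcript 201 stood at 1.39 and 1.37 TPM. A transcript of this gene that retains an intron stood at 0.39 and 1.00 TPM, from 3.23 and 7.67 reads. The summed chains exceeded H2-DMa 7.42-fold in replicate 1 and 2.90-fold in replicate 2. H2-Oa and H2-Ob, which encode the modulator H2-DO of B cells and thymic epithelium, were under 1 TPM, at 0.86 and 0.37 and at 0.060 and 0.090. H2-Oa was 2.21-fold lower in replicate 2 with a wide range (0.789 to 6.35), and H2-Ob was 1.58-fold higher, so these 2 genes cannot be placed beside the chains.

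Of 10 genes that cut or route class II cargo, 9 were detected, beside 60.7% of all protein-coding genes. Of these, 0 were apart, beside 0.364% of all genes with a mean of at least 5 TPM, a share too small for a set of 10 to differ from. The highest was Ctsh, a lysosomal cathepsin that lung epithelium also expresses, at 423 and 341 TPM, and the lowest March1, a ubiquitin ligase for class II, at 0.40 and 0.44. Their median log2 ratio was -0.08. Ctss, the cathepsin that trims the invariant chain in dendritic cells and macrophages, stood at 25.7 and 20.3 TPM, and Ctsl, which does so in thymic epithelium, at 148 and 117. These cathepsins are named for their role, after their values were seen.

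The transactivators were scarce. Ciita stood at 0.56 and 0.36 TPM from 77 and 46 estimated reads, 1.48-fold lower in replicate 2 (0.896 to 2.51). Nlrc5 stood at 0.16 and 0.18 TPM from 14 and 12 reads. The factors that bind the X and Y elements were plentiful by comparison. Rfx5, the DNA-binding subunit of the X box complex, stood at 8.29 and 7.96 TPM, which is 14.8-fold and 22.1-fold above Ciita. Of 14 transcription factors of MHC promoters, all were detected, beside 60.7% of all protein-coding genes. None was apart, beside 0.364% of all genes with a mean of at least 5 TPM, a share too small for a set of 14 to differ from. Nfyc, a subunit of the Y box factor, was highest at 84.0 and 78.6 TPM and Spi1, a myeloid factor, lowest at 7.31 and 5.81. Their median log2 ratio was -0.02.

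The interferon genes Ifnb1 and Ifng were at or near 0, and the receptor genes were detected. Ifnb1 had 0 reads in either library, a count that allows up to 0.174 and 0.187 TPM, and Ifng was listed at 0 and 0.040 TPM. Ifngr1, a chain of the interferon gamma receptor, was the highest of the 17 genes of the interferon list at 65.6 and 61.1 TPM. Among the 12 with a mean of 1 TPM or more, 11 were lower in replicate 2, beside the 48.4% of all genes, with a median log2 ratio of -0.23. Cxcl10, a chemokine induced by interferon gamma, was the member 2-fold lower, at 2.92 and 0.63 TPM, and its mean was below the 5 TPM needed to be called apart.

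Markers of thymus cells were lower in replicate 2 as well. The 8 thymocyte markers summed to 58.8 TPM in replicate 1 and 13.9 TPM in replicate 2. Of those with a mean of 1 TPM or more, 5 of 5 were lower, beside 48.4% of all genes, with a median log2 ratio of -2.23. Cd3e and Cd3g, subunits of the T cell receptor complex, stood at 9.22 and 1.49 and at 16.95 and 3.61 TPM. The 10 thymic epithelium markers summed to 97.9 and 50.4 TPM. Of those with a mean of 1 TPM or more, 9 of 9 were lower, beside 48.4% of all genes, with a median of -0.997. These values were uneven and ran from -2.26 to -0.05. Dll4 (12.4 and 11.4 TPM), Cd83 (13.2 and 11.3) and Aire (2.31 and 1.74) differed least, and the intervals of Dll4 and Aire overlapped. Prss16, a protease of cortical thymic epithelium needed for the selection of some class II-restricted T cells, stood at 30.2 and 9.45 TPM, and Foxn1, the factor that defines thymic epithelium, at 1.60 and 0.30. Psmb11, the thymus-specific partner of the proteasome subunits above, stood at 3.98 and 0.79 TPM. Of the thymocyte markers with a mean of at least 5 TPM, 3 of 3 were apart, namely Lck, Cd3g and Cd3e. Of the thymic epithelium markers with that mean, 3 of 5 were apart, namely Prss16, Ccl25 and Krt5. The share over all genes with that mean was 0.364%. Whether each gene of the thymic epithelium list, Krt5 among them, is limited to these cells was not tested. The part of these thymus markers in the class II result was not tested.

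Macrophage markers differed less between the libraries than thymus markers, and most markers of dendritic and B cells were under 1 TPM. The 9 macrophage markers summed to 305 and 270.5 TPM, with 5 lower and 4 higher in replicate 2 and a median log2 ratio of -0.07. C1qa, a complement component of tissue macrophages, stood at 28.0 and 27.8 TPM and Csf1r, the receptor that macrophages need, at 15.1 and 14.4. Lyz2, a lysozyme gene and the highest of the list, stood at 173 and 148 TPM, and Mertk, a receptor for dying cells, at 4.70 and 3.39, the markers whose intervals did not overlap. The 8 dendritic cell markers summed to 21.7 and 21.3 TPM, mostly from Zbtb46 and Batf3. The other 6 were under 1 TPM in both libraries, among them Itgax at 0.040 and 0.070, Flt3 at 0.18 and 0.070 and Xcr1 at 0 and 0.030. The 7 B cell markers summed to 15.2 and 12.9 TPM, of which Ebf1 held 10.4 and 8.71 and Cd79b, a subunit of the B cell receptor, 3.52 and 3.49. Ms4a1 had 0 reads in either library, and a limit of 3 reads equals 0.0407 and 0.0437 TPM. The upper bounds of its deposited intervals were higher, at 0.0854 and 0.0924 TPM. Zbtb46, Batf3 and Ebf1 are not limited to these cells, so the sums do not measure dendritic or B cells alone.

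**Figure D4:**
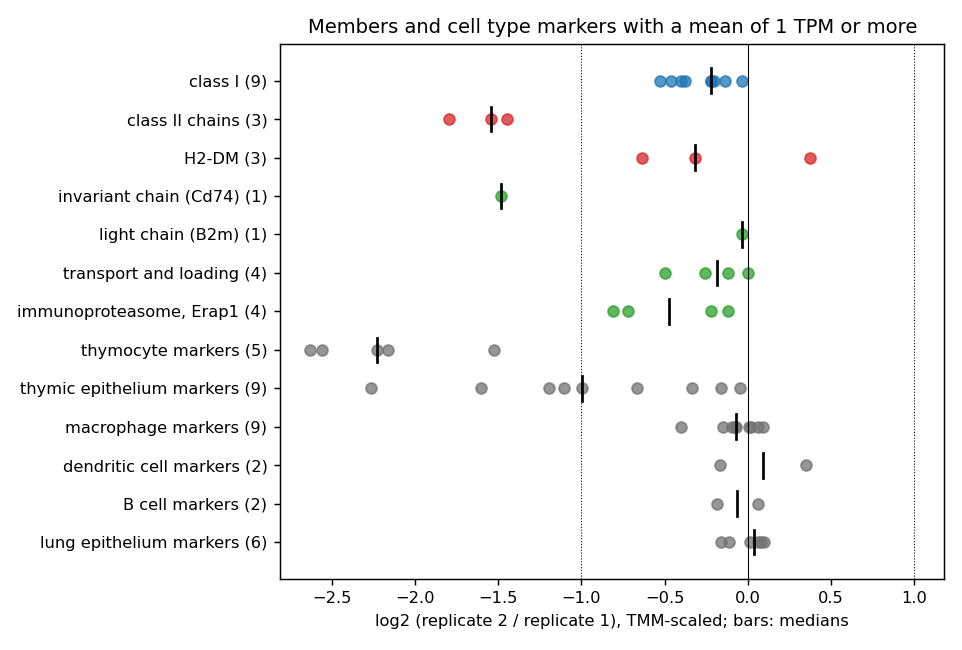
Log2 ratio of replicate 2 over replicate 1 after TMM scaling for members and cell type markers whose mean was at least 1 TPM, 1 point per gene, with the number of genes in brackets, bars at the medians and dotted lines at 2-fold. The class II chains (median -1.54) and Cd74 lie on the side of the thymus markers, the class I points lie from -0.53 to -0.04, and the macrophage median (-0.07) is near 0.

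The members were also set beside their neighbours on the chromosome. The 426 kb from Tapbp to H2-Eb2 on chromosome 17 (33915899 to 34341412) hold 16 members and 12 other protein-coding genes, such as Brd2, Rxrb and Rps18. The last of the other genes along the chromosome is Brd2, which overlaps H2-DMa. Only members follow from there to H2-Eb2, so none of the other genes lies among the class II chain genes. The 12 other genes had log2 ratios from -0.21 to 0.37, with a median of -0.0019, and 0 reached 2-fold. Over all 15152 genes that average at least 1 TPM, 263 were 2-fold or more lower and 185 higher, so a set of 12 is too small to set the neighbours apart from other genes. Of the 16 members, 13 had a mean of 1 TPM or more, with a median of -0.53, and the 3 beyond 2-fold were the adjacent H2-Ab1, H2-Aa and H2-Eb1. Cd74, which was as far apart, is not on chromosome 17.

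**Figure D5:**
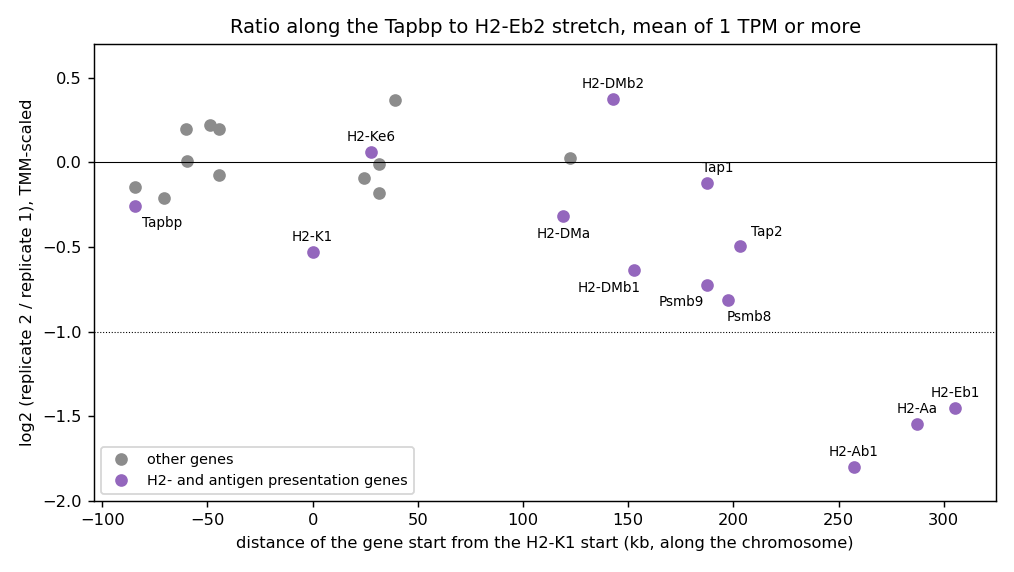
Log2 ratio of replicate 2 over replicate 1 after TMM scaling against the distance of each gene's start from that of H2-K1, for genes of at least 1 TPM on average between Tapbp and H2-Eb2. The other genes, in grey, lie between -0.21 and 0.37, and H2-Ab1, H2-Aa and H2-Eb1 lie together at the right end below -1.

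The leading transcript of a gene was mostly the same in both pools. Of the 26 members with a mean of 1 TPM or more, 21 have several annotated transcripts, and 20 of these had the same leading transcript in both libraries. The exception was H2-T22, whose transcripts 202 and 203 were close to each other, at 47.2% and 43.4% of the gene in replicate 1 and 39.4% and 41.8% in replicate 2. For Cd74, the 1218 nt transcript held 84.9% and 85.2% and the 1410 nt transcript 15.1% and 14.8%, although the level of the gene differed. The H2-D1 signal came to 87.5% and 85.9% from its transcript 202. Other shares differed more. H2-DMb1-203 held 25.1% of its gene in replicate 1 and 0% in replicate 2, Tap1-201 held 42.3% and 28.4%, and Psmb9-202 held 13.3% and 0%. The TPM intervals of each of these transcripts overlapped between the libraries. H2-DMb1-203 and Psmb9-202 rested on 10.7 and 10.8 estimated reads in replicate 1, so these shares do not show a difference between the pools.

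Some gene levels came in part from transcripts annotated as retaining an intron. For Tap2 these held most of the TPM, 77.4% and 76.0%, so the coding transcripts held 22.6% and 24.0%. Of the coding transcripts, the 3442 nt Tap2-201 held 12.4% and 10.9% and the 378 nt Tap2-204 10.2% and 13.1%. The share of transcripts retaining an intron was below that of coding transcripts for the other genes named here. It was 39.6% and 36.7% for H2-DMa, 20.4% and 42.1% for H2-DMb2, 30.8% and 27.9% for H2-Ke6, 25.7% and 24.9% for Calr, and 23.1% and 26.5% for Tapbp. B2m, Cd74 and H2-Ab1 had 0% in both libraries.

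H2-Q10 ran the other way. This class I gene, whose secreted product is made by the liver, stood at 0.54 TPM in replicate 1 and 1.43 TPM in replicate 2, from 26.2 and 53.2 estimated reads. Its intervals did not overlap, and it was 2.78-fold higher in replicate 2, but its mean was below the 5 TPM needed to be called apart. The 7 hepatocyte markers set beside it, a list added after the values were seen, summed to 32.1 and 146 TPM. Of those with a mean of 1 TPM or more, 6 of 6 were higher in replicate 2, beside 7824 of all 15152 genes. Alb, the albumin gene, stood at 4.82 and 23.3 TPM and Afp, the alpha-fetoprotein gene, at 10.7 and 53.6. Both were apart, as were Apoa1, Apoa2 and Ahsg, which makes 5 of 5 markers with a mean of at least 5 TPM, beside 0.364% of all genes with that mean. The part of the hepatocyte markers in the H2-Q10 value was not tested.

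Sequence shared with other genes limits how far single class I genes can be read. Of the 50-base stretches in the transcripts of H2-T22, 53.5% also occur, on either strand, in other genes. H2-T10, a polymorphic pseudogene with 0.62 and 0.42 TPM, led them with 31.2%. The share was 36.4% for H2-Q4, 35.0% for H2-Q6, 26.5% for H2-Q7 and 19.1% for H2-Q10, and 12.8% for H2-D1 and 9.63% for H2-K1. For H2-Q4 the leading partner, with 15.3%, was Gm11131, which overlaps it on the opposite strand. The shares therefore mix related genes elsewhere with genes that overlap the member. H2-DMb1 shares 22.7% of its stretches with H2-DMb2, which shares 21.2% with H2-DMb1, so the split between them is uncertain, and H2-Ke6 shares 70.5% with an overlapping gene model. B2m, Cd74, H2-Ab1 and H2-Eb1 share 0%, and H2-Aa 0.514%. In addition 19 members overlap another gene, such as Psmb9 and Tap1 at their shared start or H2-DMa and Brd2, on opposite strands. Whether the counting used strand is not given in the sources used here, so reads from such partners cannot be told apart.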

How the data were processed

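Total RNA from whole lung was measured in 2 libraries, each from 10 ng of RNA with molecules over 200 nt kept and spike-ins added, per the labels. Per the file headers the authors deposited, for each library, expected counts (estimated reads per feature), TPM values, posterior mean TPM values, the percent of a gene's TPM held by each transcript, and the bounds of a TPM interval (used here as a signal in TPM) whose level is not stated. The deposited text names mm10 and GENCODE M4; neither names the program, and the use of strand is not given in the sources used here. Intervals lie around the posterior mean, so the TPM of 1 member with a mean of 1 TPM or more (Calr) falls outside its own.

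Names, gene types and positions came from GENCODE M21 on GRCm38 by identifier, which named 97.96% of the 43346 genes. Numbered features without a gene (71 and 66 reads) and spike-ins (2.14% and 2.37% of reads) were left out. Libraries held 40395850 and 36601054 estimated reads, 39530297 and 35733530 in genes. Counts differed by more than sampling noise (chi-square per degree of freedom 6.65 over 19397 genes). TMM factors (edgeR 4.0.16, R 4.3.3, counts rounded) were 1.01 and 0.989 and shifted the TPM of replicate 2 by 0.07 (log2). DESeq2 1.42.0 size factors were an alternative. The scaling was run on simulated counts with sampling noise only and planted changes of known size. Such counts spread less than these, so the run checks the code and not the scaling of these libraries.

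With a single group of 2 there is no test of a condition. All members at 1 TPM or more in a library are named with values, the rest in groups, and from the 4 lists of assembly, processing, promoter factor and interferon genes the highest, the lowest and those apart. Of the cell type lists, the thymus and leukocyte markers that move with a result are named, and other markers named were chosen after their values were seen. Members and lists were chosen with earlier results of these data known. The labels name no molecular identifiers, so reads may repeat a molecule, and intervals and limits cover counting and read assignment only. The labels give each library its own biological replicate number.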

Additional observations from a re-analysis of the deposited data

How the results depend on the processing

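The 4 members apart between the libraries were H2-Ab1, H2-Aa, H2-Eb1 and Cd74 under each of 8 alternatives: DESeq2 size factors, no scaling, a minimum mean of 1 TPM, no minimum mean, 1.5-fold in place of 2-fold, the posterior mean TPM, an exact binomial test of the rounded reads with Benjamini-Hochberg adjustment, and intervals moved by the TMM shift, the last chosen after seeing the data. No minimum mean added H2-Q10 and 1.5-fold added Psmb8 and Psmb9. A lower minimum mean, no minimum mean and 1.5-fold only loosen the rule, so under these settings the 4 could not be lost. The binomial test covers the counting of reads only and not the spread between pools. Over all genes the count moved from 41 to 162 with a minimum mean of 1 TPM, to 337 with none, to 85 at 1.5-fold and to 62 with the binomial test. The median log2 ratio of class II moved from -1.04 to -0.65 with no minimum mean and a pseudocount of 0.1 TPM and to -1.50 with a minimum mean of 5 TPM, under which 4 of the 6 members are left. The cause of the first move was not tested, since it changes both the members and the pseudocount. The log2 ratio of Calr turned to -0.0711 without scaling and to -0.00073 with the posterior mean, and that of H2-Ke6 to -0.0115 without scaling. With each replicate left out in turn, 26 to 27 members were detected, class I summed to 170 to 215 TPM, class II to 28.5 to 73.5, machinery to 1283 to 1420, and the ratio of class I to class II was 2.93 to 5.95. Detection ran from 21 at 5 TPM to 28 at 0.5 TPM. No paired analysis was possible because the series has a single group. With 1 library per pool, differences of dissection, extraction and library preparation cannot be told apart from differences between pools of embryos.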

Other observations

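The annotation holds 11 more features with an H2- symbol that are not protein-coding, of which 4 are polymorphic pseudogenes, which are intact in some mouse strains, and 5 had 0 reads in both libraries. H2-T-ps, an unprocessed pseudogene of the T region, was the highest, at 1.72 TPM in replicate 1 and 2.02 TPM in replicate 2, close to the levels of H2-T24 and H2-M3. H2-Q5 stood at 0.55 and 1.14 TPM with wide intervals (0.428 to 3.69 and 0.340 to 4.24), H2-T10 at 0.62 and 0.42, and H2-K2 at 0.45 and 0.44.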
